A study of Mus musculus with 6 samples.

Results

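Integrins and laminins were followed in whole-lung RNA of untreated and irradiated mice. The set holds 26 integrin subunit genes and 11 laminin chain genes, 37 of the 40842 reference genes in the deposited tables. They were taken by symbol as integrin alpha subunits (ITGA symbol), beta subunits (ITGB plus a digit) and laminin alpha, beta or gamma chains. Longer ITGB symbols such as Itgb2l were not included. PolyA RNA was sequenced from lungs of wild-type (WT) female C57BL/6N mice, in 3 libraries of untreated animals (control 1 to 3) and 3 libraries of animals given a single 20 Gy dose of 9 MeV electrons (irradiated 1 to 3), all labelled 100 days. The labels name no age and no exposed body part. Whether each library is a different mouse is not stated either, so every p-value reflects spread among libraries that may be technical. Levels are FPKM, which corrects for gene length and library size, and a level written with ± is the mean and SD of 3 libraries.

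Integrins are cell surface receptors made of an alpha and a beta subunit that tie the cytoskeleton to the extracellular matrix or to ligands on other cells. Laminins are secreted trimers of an alpha, a beta and a gamma chain, and they form the sheet of the basement membrane on which lung epithelium and capillary endothelium rest. Leukocytes carry integrins of their own, built mainly on the beta2 and beta7 subunits, which let them adhere to endothelium and enter tissue, while epithelial, endothelial and mesenchymal cells use mainly beta1, beta4, beta5, beta6 and the alpha v partners.

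Among the leukocyte integrins, the 3 irradiated libraries lay above the 3 controls for Itgam, Itgb2 and Itga4, while the tissue integrins went both ways and among laminin chains the same held for Lamc3 and Lama2. Lamc3, the gamma3 chain, was at 1.31 ± 0.283 FPKM in control and 4.45 ± 1.54 FPKM in irradiated lung, and Itgam, the alpha subunit of the Mac-1 receptor of neutrophils and monocytes, was at 5.18 ± 0.874 against 16.1 ± 9.87 FPKM. Of the 37 genes, 32 reached the mean of 1 FPKM over the 6 libraries that was required for testing, and 0 of these 32 passed an adjusted p of 0.05 over all genes (limma on log2(FPKM + 1), Benjamini-Hochberg adjustment over 13908 genes). Over all genes 25 passed, or 0.18% of those tested (0.0647% higher and 0.115% lower in irradiated lung). At an unadjusted p under 0.05 stood 8 of the 32, namely Itgam, Itgb2, Itgax, Itga4, Itgb4, Lama2 and Lamc3 with positive changes and Itga1 with a negative one, beside 17.7% of all genes tested (7.41% with positive and 10.3% with negative changes). The groups did not overlap for 10 of the 32, with irradiated higher for 7 and lower for 3, beside 9.91% and 14.6% of all genes tested.

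The libraries held between 5.11 and 10.4 Gb of aligned sequence by the ratio of deposited coverage to FPKM, with irradiated 2 the deepest, and 13467 to 14050 genes per library reached 1 FPKM. Lung identity was checked with 6 markers (Sftpc, Sftpb, Ager, Scgb1a1, Cldn18, Nkx2-1), which summed to 49345 to 62062 FPKM in control lung versus 28421 to 38131 FPKM after irradiation. Most of this sum was Scgb1a1 (30981 to 44203 FPKM in control, 16267 to 26655 FPKM after irradiation). The groups did not overlap for Scgb1a1, Sftpc and Sftpb and overlapped for Ager, Cldn18 and Nkx2-1. Irradiated 2 stood apart by its neutrophil markers (12 genes, summed level 4964 FPKM against 162 to 1497 FPKM in the other libraries) and its red cell markers (7 genes, 6255 FPKM against 1347 to 1709 FPKM). Control 2 had the highest sum of 7 cardiac muscle markers (529 FPKM against 20.3 to 239 FPKM). In bulk tissue, fewer cells of a type and less RNA per cell cannot be told apart, and this holds for every gene described.

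Upstream sequence was at hand for 23 of the 37 genes, in a RefSeq table of the GRCm38.p6 build that gives 250 bases before and 50 bases after each start. The windows of Itgam and Itgax, leukocyte alpha subunits that lie side by side on chromosome 7, and of the platelet subunit Itga2b are shown because Itgam and Itga2b had the largest positive and negative log2 changes of the integrins and Itgax adjoins Itgam. Capitals mark GAGGAA on either strand (TTCCTC on the strand shown), the core that the myeloid factor PU.1 and other ETS factors are known to bind.
Itgam (chr7:128062390-128062689, plus strand): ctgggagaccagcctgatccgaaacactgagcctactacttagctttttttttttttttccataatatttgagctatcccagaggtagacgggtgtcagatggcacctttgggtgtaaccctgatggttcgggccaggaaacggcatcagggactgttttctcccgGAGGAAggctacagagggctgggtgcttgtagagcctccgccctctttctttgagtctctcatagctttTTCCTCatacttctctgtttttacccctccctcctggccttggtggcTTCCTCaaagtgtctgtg
Itgax (chr7:128129300-128129599, plus strand): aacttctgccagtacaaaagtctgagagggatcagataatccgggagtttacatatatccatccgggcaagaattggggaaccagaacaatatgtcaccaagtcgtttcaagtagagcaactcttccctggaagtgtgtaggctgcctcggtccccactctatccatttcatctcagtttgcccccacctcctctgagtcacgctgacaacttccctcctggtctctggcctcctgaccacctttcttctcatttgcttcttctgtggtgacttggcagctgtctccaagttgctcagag
Itga2b (chr11:102469834-102470133, minus strand): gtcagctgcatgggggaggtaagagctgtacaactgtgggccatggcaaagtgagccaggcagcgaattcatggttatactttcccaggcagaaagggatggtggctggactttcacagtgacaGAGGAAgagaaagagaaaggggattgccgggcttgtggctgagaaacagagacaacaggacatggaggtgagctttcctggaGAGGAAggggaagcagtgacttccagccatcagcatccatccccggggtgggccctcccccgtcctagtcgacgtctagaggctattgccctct
The Itgam window holds 3 matches, the Itga2b window 2 and the Itgax window 0, and matches do not overlap each other. Of all 32851 windows in the table, 28.3% hold the motif. Counted by gene, with a match in any window of the gene, 14 of the 23 genes of the set do. Among them are 2 of 4 leukocyte integrins, 6 of 13 tissue integrins and 5 of 5 laminin chains. Windows and genes are unlike units, so these counts cannot be set against the share of windows. A match is a stretch of letters and not a binding site.

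Of the 8 leukocyte integrins, 7 were tested, and each of the 7 changes was positive, beside 6147 of all 13908 genes tested. Their median was 0.42 on the log2 scale, against −0.03 over all genes tested. None passed over all genes, and 4 (Itgam, Itgb2, Itgax, Itga4) had an unadjusted p under 0.05, beside 7.41% of all genes tested with positive changes. The summed level of the 8 genes was 77.4, 77.7 and 76.4 FPKM in control 1 to 3 and 97.0, 134 and 123 FPKM in irradiated 1 to 3, so the groups did not overlap. As a share of the summed FPKM of all 26 integrin subunits, leukocyte integrins made up 15.8%, 15.9% and 14.9% in the controls and 17.8%, 24.8% and 25.1% in the irradiated libraries. This share does not depend on how libraries are scaled to each other.

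**Figure D1:**
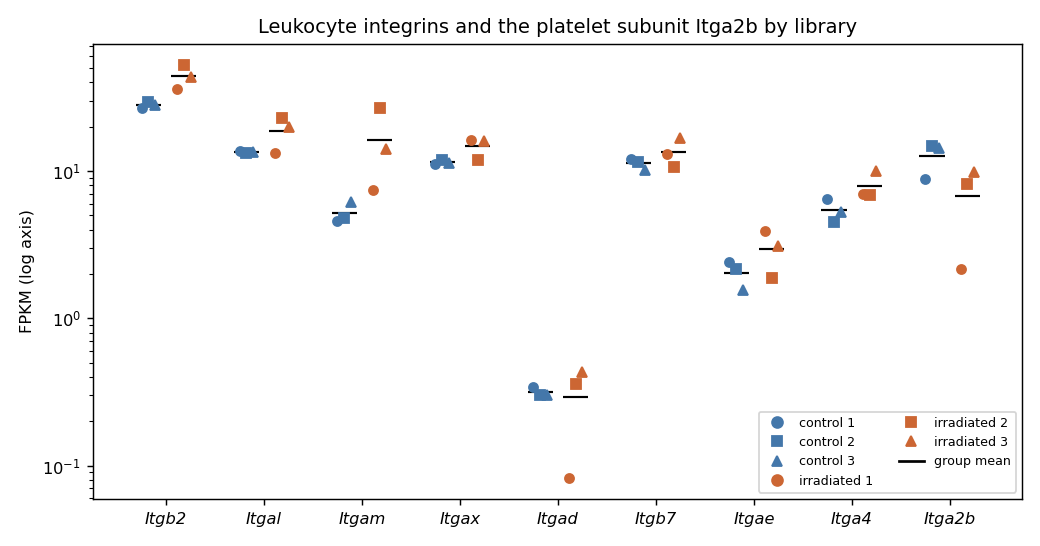
FPKM of the 8 leukocyte integrins and Itga2b on a log axis, one point per library, with control in blue, irradiated in orange and a line at each group mean. Itgb2, Itgam and Itga4 have all irradiated points above all control points, with Itgam spread from 7.37 to 26.8 FPKM in the irradiated group.

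Itgb2 encodes the beta2 subunit (CD18), the shared partner of the leukocyte alpha subunits. Control 1 to 3 measured 26.7, 29.4 and 28.2 FPKM, and irradiated 1 to 3 measured 35.9, 52.6 and 43.2 FPKM. The groups did not overlap, and irradiated 2 was highest. The log2 change was 0.61 ± 0.14 (SE, limma adjusted p = 0.115), and it lay between 0.47 and 0.74 without each library in turn.

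Itgam, alpha M (CD11b), pairs with beta2 to form the complement receptor Mac-1. Its levels were 4.59, 4.77 and 6.18 FPKM in control lung versus 7.37, 26.8 and 14.1 FPKM after irradiation. Every irradiated library lay above the controls, irradiated 1 by a small margin and irradiated 2 by the most. The log2 change was 1.31 ± 0.41 (limma adjusted p = 0.194), 0.88 without irradiated 2 and 1.74 without irradiated 1. The 12 neutrophil markers summed to 205, 162 and 567 FPKM in control lung versus 287, 4964 and 1497 FPKM after irradiation. All 12 had positive log2 changes, beside 6147 of all 13908 genes tested, and none was at 0 in every library. At an unadjusted p under 0.05 stood 0 of the 12, beside 7.41% of all genes tested with positive changes. The groups did not overlap for 1 of them, with irradiated higher, beside 9.91% of all genes tested. Ltf had a lower mean in irradiated lung (20.7 FPKM in control, 15.1 FPKM in irradiated lung). Irradiated 2 was highest for both the summed markers and Itgam. Irradiated 1 had a lower neutrophil sum than control 3 and still a higher Itgam level. The 12 monocyte and interstitial macrophage markers, summed to 154 to 184 FPKM in control lung versus 221 to 321 FPKM after irradiation, with irradiated 1 highest. The part of either cell type in the Itgam values was not tested.

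Itgal, alpha L, forms the lymphocyte receptor LFA-1 with beta2 and binds ICAM ligands. It was nearly constant in the controls (13.6, 13.2 and 13.4 FPKM) and at 13.3, 23.0 and 19.8 FPKM in the irradiated libraries. Irradiated 1 lay within the controls and the other two above them (log2 change 0.42 ± 0.18, limma adjusted p = 0.294). It was 0.26 without irradiated 2 and 0.64 without irradiated 1. Itgax, alpha X (CD11c), is carried in mouse lung by dendritic cells and alveolar macrophages, and was at 11.2, 11.9 and 11.4 FPKM against 16.3, 11.9 and 15.9 FPKM. Here irradiated 2 lay within the controls and irradiated 1 and 3 above them, the reverse of the order seen for Itgam (0.32 ± 0.13, limma adjusted p = 0.266). The sums of 11 alveolar macrophage markers overlapped between the groups (390 to 654 against 496 to 776 FPKM), as did those of 8 dendritic cell markers (60.1 to 74.3 against 53.8 to 70.3 FPKM), a list that includes Itgae. Within both lists single markers went both ways. Of the alveolar macrophage markers, 6 had positive and 5 negative changes. Without overlap, mean Chil3 was higher in irradiated lung (158.8 against 311.8 FPKM), and Marco (6.56 against 1.79 FPKM) and Krt79 (6.85 against 2.38 FPKM) were lower. Of the 7 dendritic cell markers tested, 4 had positive and 3 negative changes. Itgad, alpha D, was below the level tested, at 0.302 to 0.341 FPKM in control lung versus 0.0821 to 0.433 FPKM after irradiation.

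In GRCm39 coordinates from the files, Itgam lies at chromosome 7, 127661812 to 127717663, Itgax at 127728697 to 127749829 and Itgad at 127773105 to 127822988, all on the plus strand, and Itgal at 126895404 to 126934309 on the same chromosome. Each value is for the whole gene. Itgax and Itgad share sequence: 8.43% of the 50-base words of GENCODE M21 Itgad transcripts occur in Itgax transcripts as well, so reads could be assigned to either, while Itgam shares no such word with any other gene of the set. Itgad also overlaps Cox6a2 on the opposite strand.

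The make-up of the beta2 receptors was compared within each library as the share of each alpha partner in the summed FPKM of Itgal, Itgam, Itgax and Itgad. Itgam made up 15.4%, 15.8% and 19.8% in the controls and 19.9%, 43.2% and 28.2% in the irradiated libraries, so the groups touched without overlapping. Itgal made up 42.9% to 45.6% in the controls and 35.9% to 39.4% in the irradiated libraries, and its share was below the control range in all 3. Itgax held 36.4% to 39.4% in the controls and ranged from 19.1% in irradiated 2 to 44.0% in irradiated 1. The largest alpha subunit was Itgal in every control and in irradiated 3, Itgax in irradiated 1 and Itgam in irradiated 2.

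**Figure D2:**
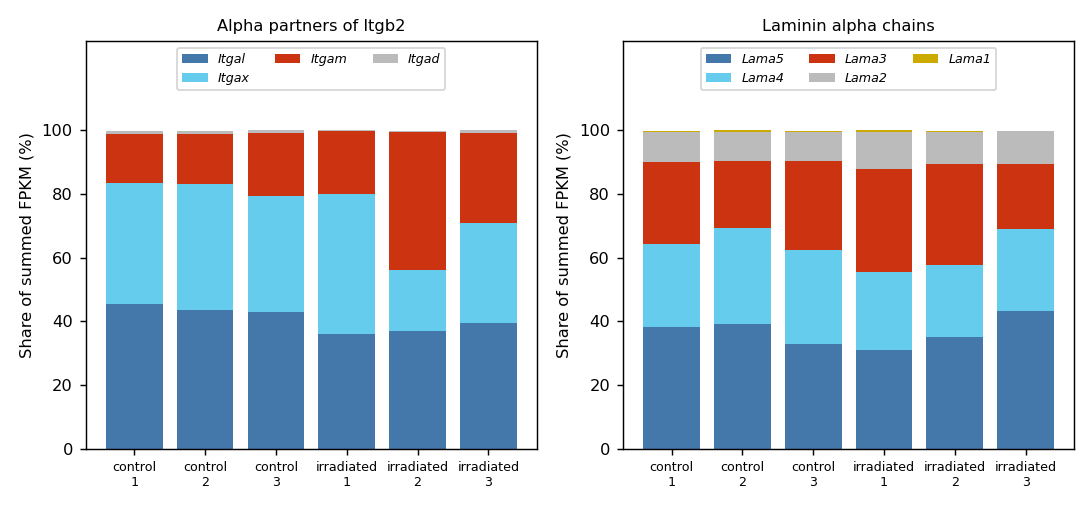
Share of summed FPKM (percent) in each library for the alpha partners of Itgb2 (left) and for the laminin alpha chains (right), as stacked bars. The Itgam band is 15.4% to 19.8% in the controls and reaches 43.2% in irradiated 2, while Lama4 narrows from 26.0% to 30.3% in the controls to 22.4% to 25.8% in the irradiated libraries.

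Itga4, alpha 4, pairs with beta1 or beta7 on lymphocytes and monocytes and binds VCAM-1. It was at 6.45, 4.52 and 5.27 FPKM in control lung versus 6.99, 6.91 and 9.91 FPKM after irradiation, without overlap (0.47 ± 0.17, limma adjusted p = 0.229). Itgb7, its gut- and mucosa-homing partner, was at 10.2 to 12.1 FPKM against 10.6 to 16.7 FPKM and overlapped (0.22 ± 0.16, limma adjusted p = 0.521). Itgae, alpha E (CD103), pairs with beta7, binds E-cadherin on epithelium and marks intraepithelial T cells and a class of dendritic cells. It was at 1.55 to 2.39 FPKM against 1.89 to 3.88 FPKM (0.36 ± 0.22, limma adjusted p = 0.436). For these lymphocyte integrins, the sums of 10 T cell markers were 41.2 to 46.7 FPKM in control lung versus 36.3 to 71.1 FPKM after irradiation, with irradiated 3 highest, as it was for Itga4 and Itgb7. The 8 natural killer cell markers summed to 47.8 to 59.1 FPKM in control lung versus 14.3 to 27.1 FPKM after irradiation, and the 8 B cell markers to 80.3 to 113 against 51.7 to 105 FPKM. Their part in the integrin values was not tested.

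Itga2b, alpha IIb, is the platelet and megakaryocyte subunit that forms the fibrinogen receptor with beta3. It was at 8.82, 14.7 and 14.2 FPKM in control lung versus 2.16, 8.10 and 9.87 FPKM after irradiation. Control 1 lay below irradiated 3, so the groups overlapped, and irradiated 1 was the lowest of the 6. The log2 change was −0.97 ± 0.48 (limma adjusted p = 0.350), and −0.42 without irradiated 1. The 9 platelet and megakaryocyte markers (Pf4, Ppbp, Gp9 and Gp1ba among them) summed to 73.8, 124 and 120 FPKM in control lung versus 22.4, 62.9 and 58.7 FPKM after irradiation. All 8 that were tested had negative changes, beside 7761 of all 13908 genes tested. At an unadjusted p under 0.05 stood 4 of these 8, beside 10.3% of all genes tested with negative changes, and none passed the adjusted threshold. Itgb3, the beta3 partner, which endothelium and macrophages carry as well, was at 7.26 to 8.86 FPKM against 5.81 to 7.62 FPKM (−0.25 ± 0.12, limma adjusted p = 0.340). Itga2b lies at chromosome 11, 102344123 to 102360709.

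**Figure D3:**
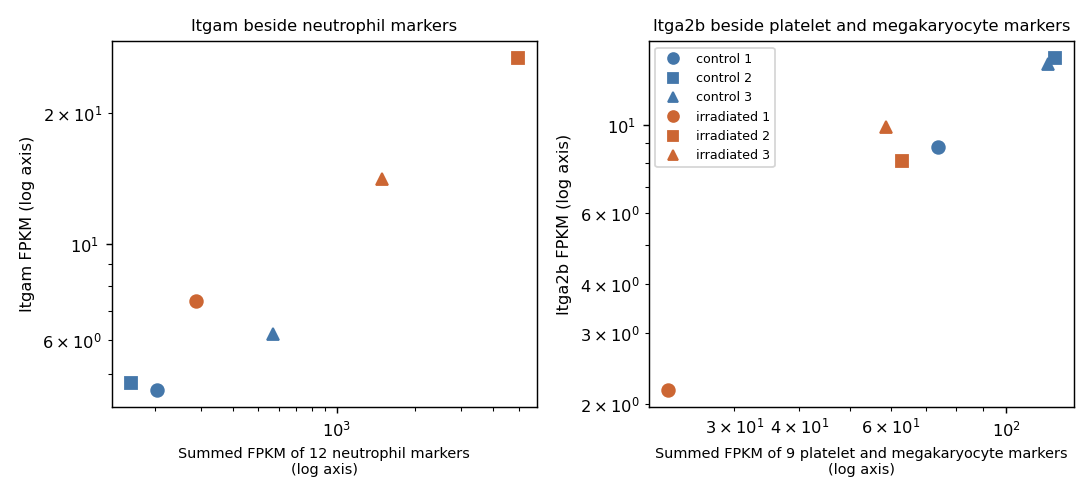
Itgam against the summed FPKM of 12 neutrophil markers (left) and Itga2b against the summed FPKM of 9 platelet and megakaryocyte markers (right), both axes logarithmic, one point per library. Irradiated 2 (4964 FPKM of neutrophil markers) has the highest Itgam, and irradiated 1 (22.4 FPKM of platelet markers) has the lowest Itga2b.

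Tissue integrins did not share a direction. Of 17 genes 14 were tested, 5 with positive and 9 with negative changes, beside 6147 and 7761 of all 13908 genes tested. Their median log2 change was −0.06, beside −0.03 for all genes. It was 0.06, against 0.09 for all genes, with FPKM rescaled to a common sum, and ran from −0.13 without irradiated 1 to −0.01 without irradiated 3. None passed over all genes. Itgb4 (positive) and Itga1 (negative) had an unadjusted p under 0.05, beside 7.41% of all genes tested with positive and 10.3% with negative changes. The median change of leukocyte integrins was 0.49 above that of tissue integrins on the log2(FPKM + 1) scale, and between 0.33 and 0.68 above it when each library was left out in turn.

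**Figure D4:**
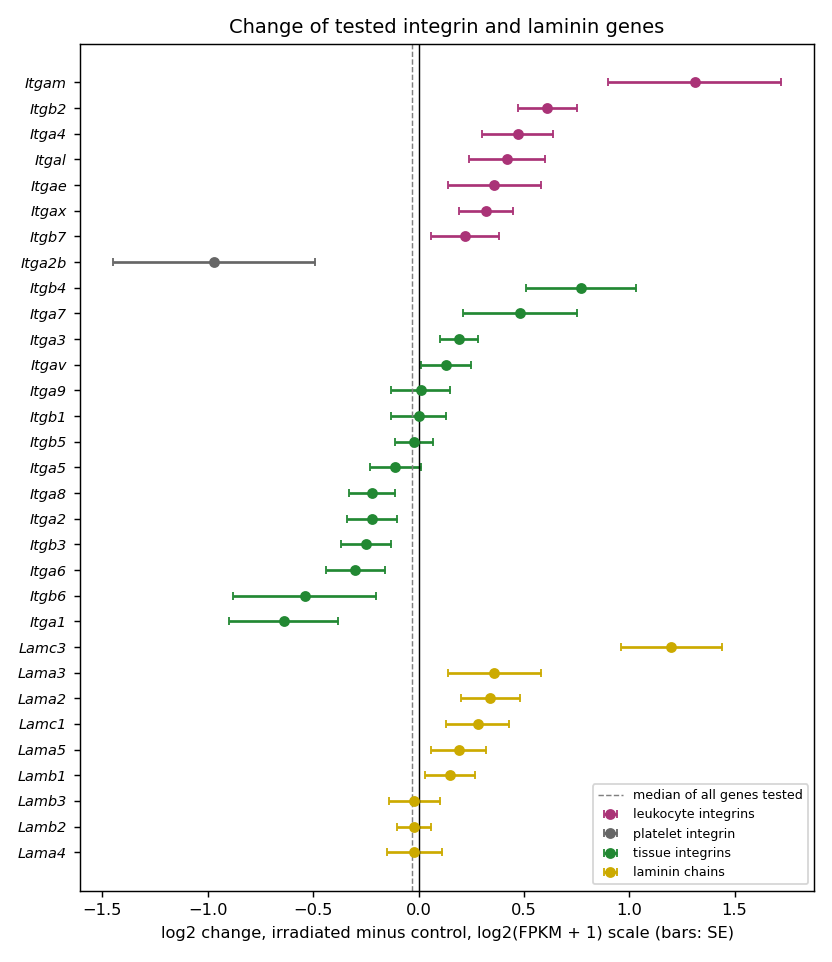
Log2 change (irradiated minus control, log2(FPKM + 1) scale) with its standard error for 31 of the 32 tested genes, coloured by class, with a dashed line at the median of all genes tested (−0.03). The 7 leukocyte integrins all lie right of 0, from 0.22 to 1.31, and the tissue integrins spread from −0.64 to 0.77.

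Of the collagen receptors, Itga1, alpha 1, which capillary, smooth muscle and mesenchymal cells carry, was at 13.4, 12.0 and 16.5 FPKM in control lung versus 10.4, 11.1 and 5.25 FPKM after irradiation. Control and irradiated ranges did not overlap, with irradiated 3 far below the rest (−0.64 ± 0.26, limma adjusted p = 0.274), and the log2 change was −0.34 without irradiated 3. Pelo, a ribosome rescue factor that lies inside Itga1 on the same strand, had a log2 change of −0.507 ± 0.094 (limma adjusted p = 0.0793), and reads of the pair might be shared. Itga2, alpha 2, its neighbour on chromosome 13, was at 3.72, 3.72 and 4.68 FPKM against 3.32, 3.37 and 3.27 FPKM, also without overlap (−0.22 ± 0.12, limma adjusted p = 0.380), and the log2 change was −0.13 without control 3. Itga10 and Itga11, collagen receptors of cartilage and fibroblasts, were below the level tested, at 0.669 to 1.53 FPKM and 0.102 to 0.194 FPKM over all 6 libraries. Beside these values, 11 endothelial markers summed to 967 to 1226 FPKM in control lung versus 812 to 985 FPKM after irradiation. Of the 11, 10 had negative changes, beside 7761 of all 13908 genes tested. The adjusted threshold was passed by 1 of them, beside 0.115% of all genes tested with negative changes. Sums of 10 smooth muscle and pericyte markers were 202 to 315 against 191 to 232 FPKM. The part of any of these cell types in the Itga1 values was not tested.

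The laminin receptors differed among themselves. Itga3, alpha 3, the main epithelial laminin receptor subunit, was at 51.5, 49.4 and 55.6 FPKM in control lung versus 63.5, 58.6 and 56.3 FPKM after irradiation, and Itga6, alpha 6, of epithelium and endothelium, was at 27.3, 24.1 and 25.4 FPKM against 23.0, 22.8 and 16.6 FPKM. Neither pair of groups overlapped, and the log2 changes were 0.19 ± 0.09 and −0.30 ± 0.14 (limma adjusted p = 0.344 and 0.311), the latter −0.15 without irradiated 3. Within a library, Itga6 made up 33.1%, 30.7% and 30.1% of the summed FPKM of Itga3, Itga6 and Itga7 in the controls and 24.0%, 26.7% and 21.2% in the irradiated libraries. Itga7, alpha 7, of smooth and striated muscle, was at 3.40 to 5.09 FPKM against 4.02 to 9.23 FPKM (0.48 ± 0.27, limma adjusted p = 0.395), with irradiated 1 highest.

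Itgb4, the beta4 subunit that pairs with alpha 6 and anchors epithelium to laminin at hemidesmosomes, was at 5.83, 5.87 and 2.97 FPKM in control lung versus 11.2, 6.84 and 8.70 FPKM after irradiation. The groups did not overlap, and irradiated 1 was highest and control 3 lowest (0.77 ± 0.26, limma adjusted p = 0.208). Without control 3 the log2 change was 0.51. Galk1, which overlaps Itgb4 on the opposite strand, had a log2 change of −0.2, and reads cannot be assigned between them without a stated strand setting. Markers of airway basal cells, which carry beta4, were near the limit of detection, with a sum of 5 genes of 0.139 to 6.61 FPKM in the controls, where control 2 was highest, and 0.833 to 2.57 FPKM in the irradiated libraries. The 8 alveolar type 1 cell markers summed to 2153 to 2488 FPKM against 1937 to 2163 FPKM and the 9 alveolar type 2 cell markers to 21800 to 24447 FPKM against 14337 to 16384 FPKM. The part of any epithelial cell type in the Itgb4 values was not tested.

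Itgb1, the beta1 subunit common to most matrix receptors, had the highest level of the set, with 169.9, 170.1 and 182.0 FPKM in control lung versus 198.6, 178.4 and 147.6 FPKM after irradiation, which spread on both sides of the controls (log2 change 0.00 ± 0.13, limma adjusted p = 0.993). Of all summed beta subunit FPKM it made up 62.9% to 65.3% in the controls and 56.9% to 63.2% in the irradiated libraries, while Itgb2 made up 10.1% to 10.9% and 11.4% to 17.9%. Itgb5, beta5, a partner of alpha v, was at 34.2, 35.2 and 35.5 FPKM against 37.7, 32.9 and 32.9 FPKM. Itgb6, the epithelial beta6 that with alpha v releases active TGF-beta, was at 7.04, 9.08 and 11.2 FPKM against 10.7, 4.42 and 4.10 FPKM. For Itgb6, irradiated 1 lay within the controls and irradiated 2 and 3 below them (−0.54 ± 0.34, limma adjusted p = 0.446). Itgb8, which also pairs with alpha v in TGF-beta activation, was below the level tested at 0.160 to 0.436 FPKM.

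Itga8, alpha 8, the nephronectin receptor of alveolar fibroblasts, was at 42.3, 40.3 and 43.8 FPKM in control lung versus 33.1, 33.9 and 41.6 FPKM after irradiation, of which only irradiated 3 reached the control range (−0.22 ± 0.11, limma adjusted p = 0.344). Over the 10 alveolar fibroblast markers found, a list that holds Npnt, the Itga8 ligand, the sums were 1844 to 2159 FPKM against 1332 to 1919 FPKM. Inmt was the largest part of each sum. Of the 10 markers, 8 had negative changes, beside 7761 of all 13908 genes tested. At an unadjusted p under 0.05 stood 4 negative and 1 positive, beside 10.3% and 7.41% of all genes tested. Scn7a passed the adjusted threshold (−0.78 ± 0.09, limma adjusted p = 0.0447), beside 0.115% of all genes tested with negative changes. The part of these cells in the Itga8 values was not tested. Itga9, alpha 9, a tenascin receptor of smooth muscle and lymphatic endothelium, was at 15.3, 14.9 and 16.4 FPKM against 18.2, 16.5 and 12.5 FPKM (0.01 ± 0.14). Itga5, the fibronectin receptor subunit, was at 9.47 to 11.8 against 8.49 to 10.9 FPKM, and Itgav at 6.30 to 7.56 against 6.73 to 8.57 FPKM. For Itga9, Itga5 and Itgav the groups overlapped, and limma adjusted p lay between 0.616 and 0.986.

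Among laminin chains 10 of 11 were tested, 7 with positive and 3 with negative changes, beside 6147 and 7761 of all 13908 genes tested. Their median log2 change was 0.17. None passed over all genes. Lamc3 and Lama2, both positive, had an unadjusted p under 0.05, beside 7.41% of all genes tested with positive changes. Irradiated 1 held the highest level of 9 of the 11 chains, and irradiated 3 that of Lama5 and Lamc3. The summed level of the 11 chains was 199.8, 202 and 196 FPKM in control 1 to 3 and 256, 209 and 206 FPKM in irradiated 1 to 3, and the median change was 0.08 without irradiated 1.

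**Figure D5:**
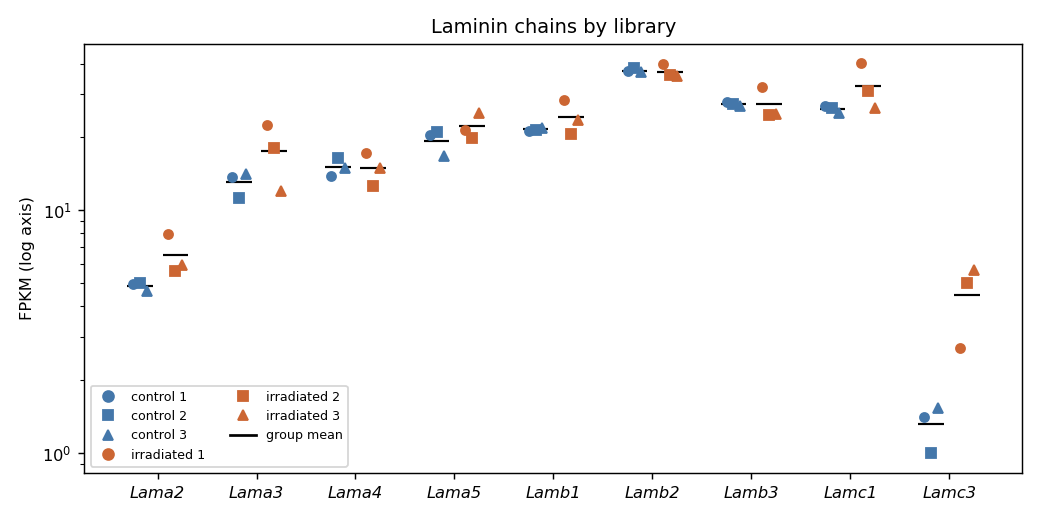
FPKM of 9 tested laminin chains on a log axis, one point per library, with control in blue, irradiated in orange and a line at each group mean. Irradiated 1 (orange circle) tops most chains, and for Lamc3 all irradiated points (2.7 to 5.64 FPKM) lie above the controls (0.992 to 1.53 FPKM).

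Lamc3, the gamma3 chain, a minor gamma chain in most tissues, had the smallest p of the set. It was at 1.40, 0.992 and 1.53 FPKM in control lung versus 2.7, 4.99 and 5.64 FPKM after irradiation. The ranges of the groups did not overlap, and irradiated 1, highest for most other chains, was the lowest of the irradiated libraries. The log2 change was 1.2 ± 0.24 (limma adjusted p = 0.0864), from 1.04 to 1.46 without each library in turn. Lamc3 passed the threshold without irradiated 1 (adjusted p = 0.0447), and its adjusted p over all alternatives ran from 0.0447 to 0.294. As a share of the summed FPKM of the gamma chains, it was 2.32%, 1.62% and 2.57% in the controls and 3.13%, 6.99% and 8.76% in the irradiated libraries. Lamc3 lies at chromosome 2, 31777293 to 31839095, and no other named gene overlaps it in the tables.

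Lamc1, the gamma1 chain of most laminins, was at 26.8, 26.3 and 25.1 FPKM in control lung versus 40.1, 30.8 and 26.2 FPKM after irradiation. Irradiated 3 lay within the controls and irradiated 1 was highest (0.28 ± 0.15, limma adjusted p = 0.379). The log2 change was 0.12 without irradiated 1 and 0.42 without irradiated 3. Of the summed FPKM of the gamma chains, Lamc1 made up 42.1% to 44.2% in the controls and 40.6% to 46.5% in the irradiated libraries, with overlap. It lies at chromosome 1, 153094668 to 153208532.

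Of the alpha chains, Lama5, the main alpha chain of adult epithelial basement membrane, had the highest control mean (19.3 ± 2.36 FPKM), followed by Lama4, of endothelial basement membrane (15.0 ± 1.28 FPKM), and Lama3, the alpha chain of epithelial anchoring laminin, and the control ranges of Lama4 and Lama3 overlapped. Lama5 was at 20.3, 21.0 and 16.6 FPKM in control lung versus 21.4, 19.8 and 25.0 FPKM after irradiation, with overlap (0.19 ± 0.13, and 0.09 without control 3 or 0.10 without irradiated 3). Lama3 was at 13.6, 11.2 and 14.1 FPKM against 22.3, 18.0 and 12.0 FPKM, with irradiated 3 in the control range (0.36 ± 0.22, and 0.17 without irradiated 1 or 0.60 without irradiated 3). Lama4 was at 13.8 to 16.3 against 12.6 to 17.1 FPKM (−0.02 ± 0.13), and its share of the alpha chains was below the control range in every irradiated library. Limma adjusted p for Lama3, Lama4 and Lama5 lay between 0.423 and 0.958.

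Lama2, the alpha chain of muscle, nerve and mesenchymal basement membrane, was at 4.97, 5.02 and 4.63 FPKM in control lung versus 7.99, 5.62 and 5.90 FPKM after irradiation. The groups did not overlap, with irradiated 1 farthest from the controls (0.34 ± 0.14, limma adjusted p = 0.264), and the log2 change was 0.20 without irradiated 1. Summed smooth muscle and pericyte markers overlapped between the groups (values above), as did 5 Schwann cell markers (12.8 to 15.9 against 12.2 to 18.2 FPKM). Lama1, an alpha chain of embryonic basement membrane, was below the level tested at 0.111 to 0.455 FPKM.

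Of the beta chains, Lamb2, the vascular and muscle chain, was at 37.2, 38.4 and 36.9 FPKM in control lung versus 39.8, 35.8 and 35.5 FPKM after irradiation, and Lamb3, an epithelial chain that partners Lama3, was at 27.9, 27.4 and 26.9 FPKM against 32.2, 24.5 and 24.9 FPKM. In both, irradiated 1 lay above the controls and the other two below them, and the fitted changes were −0.02 ± 0.08 and −0.02 ± 0.12. Lamb1, the beta chain of most laminins, was at 21.2 to 21.8 FPKM against 20.6 to 28.3 FPKM (0.15 ± 0.12). Limma adjusted p for Lamb1, Lamb2 and Lamb3 lay between 0.556 and 0.944. Within the beta chains, Lamb1 made up 24.5% to 25.5% in the controls and 25.5% to 28.2% in the irradiated libraries.

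Genes that work with integrins and laminins were read from 4 lists. Of 26 genes that activate integrins or link them to actin, all 26 were tested and 0 passed over all genes. At an unadjusted p under 0.05 stood 3 with positive and 0 with negative changes, beside 7.41% and 10.3% of all genes tested. Apbb1ip (RIAM), which brings talin to integrins downstream of Rap1 in leukocytes, was at 8.47, 7.14 and 6.62 FPKM in control lung versus 9.73, 14.0 and 12.5 FPKM after irradiation (0.63 ± 0.15, limma adjusted p = 0.118). Actn1, an actin crosslinker at adhesions, was at 41.0, 40.0 and 36.4 FPKM against 52.7, 49.8 and 49.0 FPKM (0.36 ± 0.09, limma adjusted p = 0.118), and Ptk2b, the adhesion kinase Pyk2, at 9.57 to 10.7 against 11.4 to 13.9 FPKM (limma adjusted p = 0.238). In each of these 3 genes the groups did not overlap. Over the list this held for 5 of 26 with irradiated higher and 3 with irradiated lower, beside 9.91% and 14.6% of all genes tested. Fermt3, the kindlin of blood cells, was at 12.7 to 14.5 against 10.7 to 14.6 FPKM, and the median of the list was −0.01.

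Of 12 ligands of leukocyte integrins 8 were tested, with a median of −0.17, and 0 passed over all genes. At an unadjusted p under 0.05 stood 1 with a positive and 1 with a negative change, beside 7.41% and 10.3% of all genes tested. The positive one was Fgg, a fibrinogen chain at a low level (0.496, 1.25 and 0.341 FPKM against 4.03, 1.17 and 1.82 FPKM, limma adjusted p = 0.240). The negative one was F11r (JAM-A), a junction protein that binds LFA-1 (77.7, 79.5 and 77.3 FPKM against 66.5, 60.9 and 72.9 FPKM, limma adjusted p = 0.276). Fgg reached the level tested only through the irradiated libraries (mean 0.695 FPKM in control and 2.34 FPKM in irradiated lung), so its p is no support for a difference. Control and irradiated levels did not overlap for F11r and did for Fgg. Icam1, the main LFA-1 and Mac-1 ligand, was at 148 to 166 FPKM against 149 to 194 FPKM, and Vcam1, the alpha 4 ligand, at 18.9 to 22.4 against 16.2 to 32.7 FPKM.

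Of 18 matrix ligands of tissue integrins, all 18 were tested, with a median of −0.11, and 0 passed over all genes. Spp1 (osteopontin), a ligand of alpha v and alpha 4 receptors, was at 15.5, 27.1 and 28.7 FPKM in control lung versus 73.6, 32.2 and 50.6 FPKM after irradiation (1.07 ± 0.35, limma adjusted p = 0.204). Fn1, fibronectin, was at 33.7, 45.0 and 43.9 FPKM against 106, 74.6 and 46.5 FPKM (0.81 ± 0.29, limma adjusted p = 0.232). Tgfb3, a latent growth factor held by alpha v receptors, was at 11.3, 13 and 11.2 FPKM against 10.3, 7.04 and 7.14 FPKM (−0.51 ± 0.15, limma adjusted p = 0.175). The ranges did not overlap for any of these 3 genes, and irradiated 1 was highest for Spp1 and Fn1.

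Of 19 basement membrane partners of laminin 16 were tested, 13 with positive changes, beside 6147 of all 13908 genes tested. Their median was 0.19, and 0 passed over all genes. The groups did not overlap with irradiated higher for 0 and lower for 1, beside 9.91% and 14.6% of all genes tested. Against the control mean, the median of the list was 0.46, 0.11 and −0.05 in irradiated 1 to 3. Col4a2, a collagen IV chain of the same sheet, was at 74.8, 69.4 and 86.5 FPKM in control lung versus 155, 140 and 80.4 FPKM after irradiation (0.65 ± 0.25, limma adjusted p = 0.249), with irradiated 3 in the control range. Smoc2, a matricellular protein of basement membranes, was at 3.64, 4.85 and 3.79 FPKM against 3.32, 1.2 and 2.3 FPKM without overlap (−0.68 ± 0.25, limma adjusted p = 0.234). The summed level of the list was 981.9 to 1106 FPKM in the controls against 1497, 1193 and 845 FPKM in irradiated 1 to 3, the same order of irradiated libraries as for the summed laminin chains.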

How the data were processed

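Whole-lung polyA RNA of 6 libraries was analysed, 3 control and 3 irradiated. Per the submitters' processing notes, the tools were STAR 2.7.6a, fastp and DESeq2 on GRCm39, and their roles are not listed. The quantification step, annotation and strand setting are not given in the sources used. The values are FPKM as deposited by the authors, 1 table per library. The deposited coverage, a signal per base, was used only to estimate depth, as its most common ratio to FPKM among named rows above 1 FPKM in each library. The deposited TPM were not used. The files give no counts, hence no counting interval, and depth limits the precision of low values.

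FPKM of named rows were summed per gene. As the files hold no counts, limma 3.58.1 (R 4.3.3, mean-variance trend, robust estimates) was fitted on log2(FPKM + 1) to 13908 genes (mean over libraries 1 FPKM or more), with group as the single term. P-values were adjusted over all of them by the Benjamini-Hochberg method at a threshold of 0.05. A log2 change is irradiated minus control, is given with its standard error, and understates the change of genes near 1 FPKM. The fit was tested in 10 simulations with 200 changed genes each, all above a minimum control level. It recovered 33.7% of 1.5-fold, 73.7% of 2-fold and 93.2% of 4-fold changes, and 4.43% of calls were false. Most changes of 1.5-fold were thus missed in the simulations, so a gene that was not called may still have changed. These rates hold for the simulated number of changed genes and do not cover genes below that control level.

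The members and all lists were chosen with earlier results of these data known. Leukocyte integrins are Itgal, Itgam, Itgax, Itgad, Itgae, Itga4, Itgb2 and Itgb7. Itga2b stands alone and the other 17 subunits are tissue integrins. Library values are listed for tested members with an unadjusted p under 0.05 or among the 2 highest of their role, and further members listed by library were added after their values were seen. Of the partner lists, up to 4 genes per direction with the smallest p under 0.05 are named, others after their values were seen. Marker lists were taken whole, and 1 marker symbol was not matched. Python 3.11.15, numpy 2.4.6, pandas 2.3.3 and matplotlib 3.10.9 were used. Promoter windows are from RefSeq (GRCm38.p6), and shared 50-base words from GENCODE M21 transcripts. Values of 1 laminin chain are not reported here, and it counts in the totals.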

Additional observations from a re-analysis of the deposited data

How the results depend on the processing

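With limma, 25 genes were called over all genes as reported, against 38 with a minimum of 5 FPKM, 14 with FPKM rescaled to a common sum, 11 with median-ratio scaling, 0 with no filter (3531 at an unadjusted p under 0.05) and 0 with the replicate number as a block (1623 at an unadjusted p under 0.05, against 2466). Leaving out each library in turn gave 0 to 116 calls, and 1488 to 2738 genes at an unadjusted p under 0.05. Members called were 0 in every fit except without irradiated 1, where Lamc3 passed, a range of 0 to 1. Members at an unadjusted p under 0.05 numbered 8 as reported, 5 with no filter, 11 with a common sum, 6 with the replicate block, and 4 to 13 without each library, 4 without any 1 of the controls and 13 without irradiated 2. Lamc3 and Itgb2 were among them in all fits but Lamc3 with a minimum of 5 FPKM, which it does not reach. Rescaling to a common sum moved the median of all genes from −0.03 to 0.09 that of leukocyte integrins from 0.42 to 0.57 and that of tissue integrins from −0.06 to 0.06. Without each library the leukocyte median ran from 0.32 to 0.54 and its distance from tissue integrins from 0.33 to 0.68. That distance was positive in every alternative, and 0.41 with Itga4 counted as a tissue integrin.

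Signs turned for genes near 0. With a common sum the log2 change was 0.13 for Itgb1 and 0.11 for Itgb5, Lamb2 and Lamb3, with median-ratio scaling 0.04 for Itgb1 and 0.02 for the other 3, and with upper-quartile scaling 0.01 for Itgb1. Without each library it ran from −0.10 to 0.15 for Itga9, −0.10 to 0.11 for Itgb1, −0.08 to 0.01 for Itgb5, −0.07 to 0.01 for Lamb2 and −0.15 to 0.05 for Lamb3. Itga1 was at an unadjusted p under 0.05 as reported, with pseudocounts of 0.1 and 0.5, with a minimum of 5 FPKM and without irradiated 1 or 2, and in none of the other fits. The cause of these shifts was not tested. Libraries with the same replicate number deviated from their group means with correlations of −0.17, −0.537 and −0.28 across genes. For libraries of unlike number the correlations ran from −0.278 to 0.522. The labels do not say whether the numbers pair libraries, and with 3 libraries per group these correlations cannot decide it. Counting error at low levels limits Itgad, Itga10, Itga11, Itgb8 and Lama1.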
